A study of Mus musculus with 2 samples.

Results

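The 10 genes Cdh6, Cdh7, Cdh8, Cdh9, Cdh10, Cdh11, Cdh12, Cdh13, Cdh18 and Cdh20 are type II and atypical cadherin genes, and they were taken as a named family of 10 among 21523 coding genes. The 10 are a chosen set that need not hold every type II cadherin, and the family below means these 10. Cdh5, Cdh19, Cdh22 and Cdh24 are not among the 10 and are counted below with other classical cadherins, whatever their type. Around the 10 genes, H3K9me2 peaks were read from 1 TBC1D3-transgenic library and 1 wild-type library of cortex from C57BL/6 mouse embryos at embryonic day 15.5. A peak is a stretch where the authors' peak caller found more immunoprecipitated fragments than the input background gives, at a p of 0.001 or lower. It belonged to a gene when it overlapped the gene body extended by 2 kb, and to the gene's domain when it lay in the body or within 500 kb of it. By this rule 39 of 6253 transgenic peaks and 6 of 743 wild-type peaks lay in the domains, 18 and 3 of them in the gene bodies. At the 500 kb limit, a transgenic peak 489 kb from Cdh11 lay just inside and one 500.3 kb from Cdh7 just outside. At the 2 kb limit all peaks counted lay in the bodies themselves, and the nearest one outside was 16.9 kb from Cdh10. TBC1D3 is a hominoid gene that mice lack, carried here as a transgene. The promoter that drives it and the number of embryos behind each library are not given in the sources used here. With 1 library per genotype no p-value could be computed, and each interval below covers counting error alone.

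Classical cadherins are calcium-dependent adhesion proteins that bind like partners on neighbouring cells and hold on to the actin cytoskeleton through catenins. Type II cadherins differ from E- and N-cadherin in the outermost extracellular domain, where a pair of tryptophans docks into the partner molecule. In the developing brain they are expressed in overlapping combinations that mark nuclei, cortical areas and layers. Cdh13 (T-cadherin) is atypical, since it has no transmembrane or cytoplasmic part and is held on the membrane by a lipid anchor. H3K9me2, dimethylation of lysine 9 on histone H3, is placed by G9a and GLP and is known for wide stretches over silent euchromatin. In whole cortex, a mark present in few cells and a weaker mark in many cells cannot be told apart. The files hold no expression values, so the tissue label could not be set against marker genes.

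Several of these genes stand alone in long stretches without other coding genes. Cdh9, for example, is 3552 kb from Cdh6 on one side and 1962 kb from Cdh10 on the other, on chromosome 15. Cdh8 is 3136 kb from Got2 and 3214 kb from Cdh11, on chromosome 8. Other coding genes were absent from the domains of Cdh7, Cdh8, Cdh9, Cdh10 and Cdh11. Cdh12, Cdh18 and Cdh20 had 1 each and Cdh6 had 3, with Drosha 93.4 kb away. Cdh13 had the most, with 18 other coding genes in its domain, 15 of them on its high-coordinate side. Bodies ranged from 128.6 kb in Cdh9 to 1185 kb in Cdh13. The domains of Cdh12 and Cdh18 overlap, so the 10 genes give 9 separate domains of 14.6 Mb in all, or 0.569% of the chromosome length considered.

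The start sites that RefSeq lists for the family were free of peaks in both libraries. The sequences just before 3 of them are printed because, among the members listed, they belong to the one nearest to a transgenic peak (Cdh10), the one farthest from such a peak (Cdh9) and the one with most CG dinucleotides before its start (Cdh8). A promoter window of RefSeq (GRCm38.p6, the assembly of mm10) was found for 8 of the 10 members, with 3 windows for Cdh7 and 10 windows in all. Each run below is the 250 bases before the start site, 5′ to 3′ on the gene's own strand, with every CG in capitals. Cdh10 is on the plus strand of chromosome 15, from 18820079 to 18820328. Cdh9 is on the plus strand of the same chromosome, from 16728665 to 16728914. Cdh8 is on the minus strand of chromosome 8, from 99416472 to 99416721.
Cdh10: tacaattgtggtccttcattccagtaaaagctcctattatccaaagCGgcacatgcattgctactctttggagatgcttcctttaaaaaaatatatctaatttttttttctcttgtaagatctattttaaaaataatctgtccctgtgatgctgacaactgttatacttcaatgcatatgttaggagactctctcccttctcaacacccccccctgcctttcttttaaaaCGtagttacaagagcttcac
Cdh9: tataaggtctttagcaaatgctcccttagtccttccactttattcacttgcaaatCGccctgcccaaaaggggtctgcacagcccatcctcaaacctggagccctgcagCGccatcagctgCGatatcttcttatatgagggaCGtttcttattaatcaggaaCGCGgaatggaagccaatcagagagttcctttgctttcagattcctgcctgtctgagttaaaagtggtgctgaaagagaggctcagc
Cdh8: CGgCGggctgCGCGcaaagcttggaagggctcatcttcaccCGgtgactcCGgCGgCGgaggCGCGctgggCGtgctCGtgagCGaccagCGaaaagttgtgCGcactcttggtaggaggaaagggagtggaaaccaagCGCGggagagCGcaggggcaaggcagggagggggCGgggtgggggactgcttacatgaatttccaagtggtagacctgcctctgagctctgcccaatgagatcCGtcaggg

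The motif searched was CG, which reads the same on both strands and does not overlap itself. There were 2 in the Cdh10 sequence, 6 in that of Cdh9 and 20 in that of Cdh8. Over 21045 promoter windows of coding genes, 85.2%, 62.8% and 24.0% held at least as many before the start. The nearest transgenic peak was 18.1 kb from the Cdh10 sequence, 775 kb from that of Cdh9 and 575 kb from that of Cdh8. The nearest wild-type peak was 2935 kb, 843 kb and 674 kb away. None of the 10 member windows overlapped a peak of either library. Across all windows the overlap was as rare, at 7 transgenic (0.0333%) and 2 wild-type windows (0.0095%), so the lack of peaks at the cadherin starts does not set them apart.

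Over the whole family the density of peaks was close to that of the chromosomes that carry it. The mean density of each gene's chromosome gives 39.1 transgenic and 5.53 wild-type peaks over the merged domains, where 39 (exact 95% Poisson interval 27.7 to 53.3) and 6 (2.20 to 13.1) were listed. Relative to the rest of chromosomes 1, 8 and 15, the density in the domains was 0.991 times as high in the transgenic library (exact 95% interval 0.700 to 1.36) and 1.30 times in the wild-type library (0.468 to 2.90). The domains held 0.624% of the transgenic list (exact binomial interval 0.444 to 0.852) and 0.808% of the wild-type list (0.297 to 1.75), and these intervals overlap widely. In the domains there were 6.50 transgenic peaks for each wild-type peak (2.73 to 18.8), where the whole lists give 8.42.

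Within the domains, gene bodies held 18 of 39 transgenic peaks and 3 of 6 wild-type peaks. These are 46.2% (30.1 to 62.8) and 50% (11.8 to 88.2), where the bodies make up 32.2% of the length. Density in the bodies was 1.80 times that of the surrounding 500 kb in the transgenic library (0.905 to 3.55) and 2.1 times in the wild-type library (0.282 to 15.7). Both intervals include 1, so a difference between the genes and the sequence around them was not detectable at this number of peaks.

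**Figure D1:**
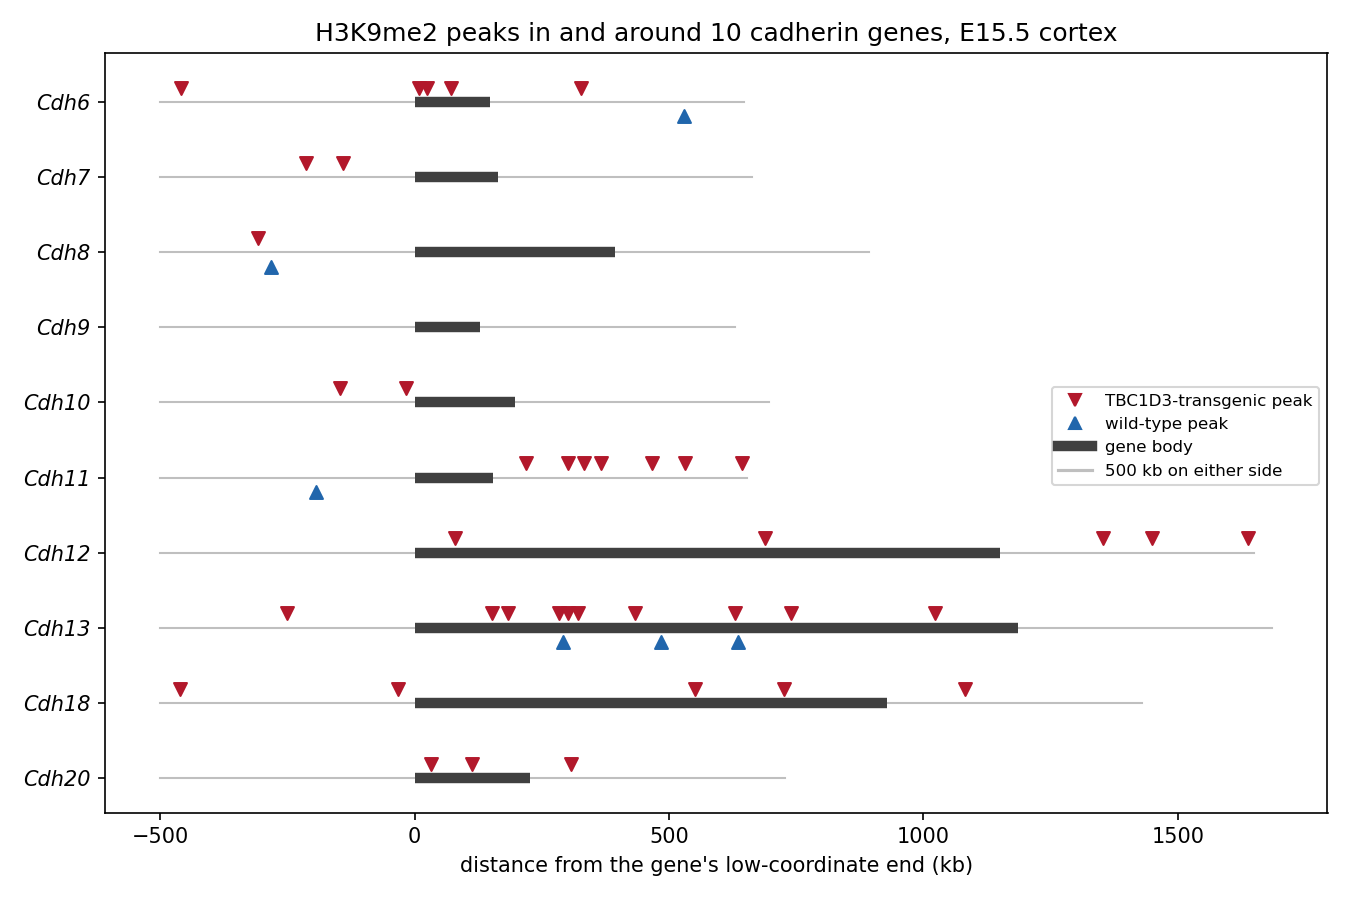
Positions of peaks in and around the 10 cadherin genes, as distance in kb from each gene's low-coordinate end. Triangles above a line are transgenic peaks, triangles below it wild-type peaks, thick bars gene bodies and thin lines the 500 kb on either side. A reader should see the 9 transgenic and 3 wild-type peaks inside Cdh13, the 7 transgenic peaks on 1 side of Cdh11, and the empty domain of Cdh9.

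Gene bodies of 5 of the 10 members held a transgenic peak (Cdh6, Cdh12, Cdh13, Cdh18 and Cdh20) and 1 of 10 a wild-type peak (Cdh13). Over all coding genes the shares were 5.69% and 0.911%. Cadherin genes of this family are long, however, and among coding genes at least as long as Cdh9, the shortest member, the shares were 37.4% and 8.0%. Read against these, 5 and 1 of 10 are near the background. Among coding genes over 600 kb, 86.8% held a transgenic peak and 29.6% a wild-type peak, against 3 and 1 of the 3 members of that length (Cdh12, Cdh13 and Cdh18). Among genes of 100 to 300 kb, 19.6% held a transgenic and 3.32% a wild-type peak, against 2 and 0 of 6 members. Cdh8 was the single member of 300 to 600 kb and held 0 peaks in both libraries, where 57.3% and 10.9% of genes of that length held one. Within 500 kb of a gene, 9 of 10 members had a transgenic peak and 4 of 10 a wild-type peak, where all coding genes, most of them shorter, gave 69.5% and 18.9%.

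**Figure D2:**
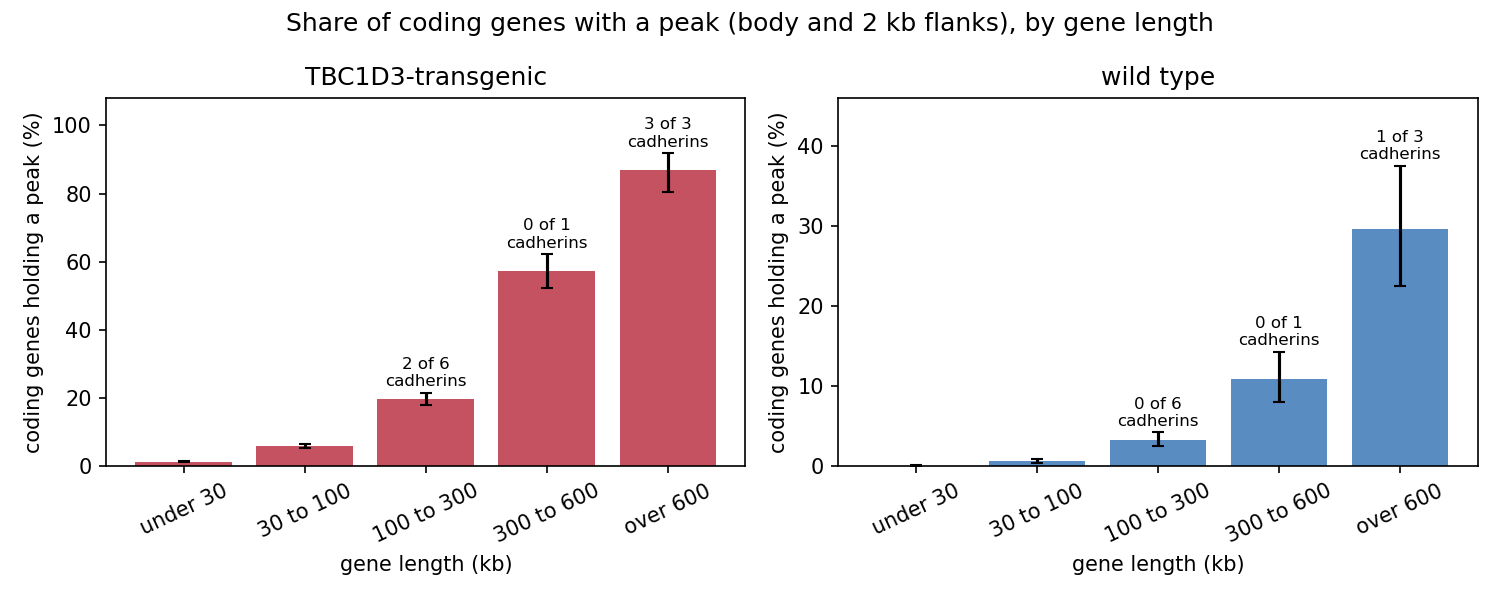
Share of coding genes with a peak in the body or its 2 kb flanks (per cent, vertical axis) by gene length in kb (horizontal axis), for the transgenic library (left) and the wild-type library (right). Bars are shares with exact 95% binomial intervals, and the numbers above them count the cadherins of each class. The share climbs with length to 86.8% and 29.6% over 600 kb, where all 3 cadherins held a transgenic peak and 1 a wild-type peak.

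Cdh13, the lipid-anchored T-cadherin that also binds adiponectin, held more peaks than the other members in both libraries. For its length of 1185 kb it was not the densest member in the transgenic library. Cdh6 held 3 transgenic peaks in 147.7 kb and Cdh20 held 2 in 227 kb. The body of Cdh13 (chromosome 8, 118140017 to 119324929) contained 9 transgenic peaks (4.12 to 17.1) and 3 wild-type peaks (0.619 to 8.77). The mean density of the chromosome gives 3.28 and 0.452 over the same length. Both intervals lie above these numbers, though Cdh13 was singled out among 10 members after its counts were seen, which the intervals do not allow for. Of 21523 coding genes, 7 held at least 9 transgenic peaks and 5 held at least 3 wild-type peaks, Cdh13 among them in both cases.

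Cdh13 was dense in peaks also among genes of like length. Among the 68 coding genes at least as long as Cdh18, a comparison chosen after the values were seen, Cdh13 had 7.57 transgenic peaks per Mb, where the median was 2.50 and 2 genes were denser. Its 2.52 wild-type peaks per Mb were exceeded by 0 of the 68, of which 25 held any wild-type peak. Cdh12, a brain cadherin of nearly equal length, had 1.73 transgenic peaks per Mb, and Cdh18, another cadherin of the nervous system, had 2.14. The transgenic density of Cdh13 was 4.37 times that of Cdh12, with an interval from 0.904 to 41.5 that includes 1. It was 3.53 times that of Cdh18 (0.731 to 33.6). Cdh13 could thus not be told apart from Cdh12 or Cdh18 by these counts.

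The Cdh13 peaks lay deep inside the gene and not at its ends. From the low-coordinate end, the 9 transgenic peaks began 152.7 kb inside and the last lay 1023 kb inside. The first 6, a stretch chosen after the positions were seen, fell within 280 kb, where the mean density of the chromosome gives 0.771, and neighbours were 17.8 to 111 kb apart. The first and the second of them also lay in a noncoding RNA gene, Gm51555. The peak of lowest p lay at chromosome 8, 118768771 to 118768881, with 8 fragments over its summit and a fold enrichment of 4.08 (−log10 p 5.30). The fold is the fragment pileup plus 1 over the local input background plus 1, and both it and p are the authors' values. Folds of the 9 ranged from 2.89 to 4.08, and each peak rested on 5 to 8 fragments. The wild-type peak of lowest p lay 7.46 kb from that transgenic peak, at 118776338 to 118776394, with 8 fragments, a fold of 4.64 and −log10 p 5.48. Another wild-type peak, at 118430647 to 118430703 (6 fragments, fold 3.97), lay 6.41 kb from a transgenic peak, and the remaining one (6 fragments, fold 3.94) lay 51.4 kb from one. Thus 2 of the 3 wild-type peaks in Cdh13 had a transgenic peak within 10 kb, and 0 overlapped one. Over the whole wild-type list these shares were 10.1% and 0.538%. Cdh13 was singled out after its counts were seen, so its 2 of 3 cannot be read against that 10.1%.

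Outside Cdh13 the counts were low. The 498 kb beyond the high-coordinate flank, with 15 coding genes, held 0 transgenic and 0 wild-type peaks, where the chromosome's mean gives 1.37 and 0.189. The low-coordinate side, with 3 other coding genes, held 1 transgenic peak 251 kb from the gene and 0 wild-type peaks, against the same means. Gene number differed between the 2 sides, and its part in these counts was not tested.

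Cdh11, a cadherin of mesenchyme and osteoblasts that is also expressed by neurons, had transgenic peaks beside the gene and none inside it. The same held for Cdh7, Cdh8 and Cdh10. The Cdh11 body (chromosome 8, 102632095 to 102785493) held 0 transgenic and 0 wild-type peaks (0 to 3.69 in each). The chromosome's mean gives 0.434 and 0.0598, inside these intervals. On the high-coordinate side of Cdh11 there were 7 transgenic peaks (2.81 to 14.4), where the mean gives 1.37, and on the low-coordinate side 0. The wild-type library had 0 peaks on the high-coordinate side and 1 on the low-coordinate side, at 102437054 to 102437151 (7 fragments, fold 4.66, −log10 p 5.28). The 7 peaks were spread over 424 kb and lay 65.4 to 489 kb from the gene, with gaps of 31.1 to 112 kb. The next coding gene on that side was Cdh5, 1316 kb away. The strongest of them, by lowest p, lay at 102963957 to 102964067, 178 kb from Cdh11, with 8 fragments and a fold of 4.53 (−log10 p 5.99). The other 6 had folds from 2.91 to 4.08. The farthest of the 7 lay in a noncoding RNA gene, Gm32531, and the other 6 in no annotated gene.

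Sides with as many peaks were uncommon among all coding genes. Of 43046 sides of coding genes measured in the same way, 105 (0.244%) held at least 7 transgenic peaks, the highest held 11 and the mean was 0.901. That mean lies below the 1.37 that the mean density of chromosome 8 gives over the Cdh11 side. The sides were not matched for gene number, and the next coding gene on the Cdh11 side was 1316 kb away. Neighbouring genes share such sides, so these are not independent, and the Cdh11 side was picked after its count was seen. The promoter table has no entry for Cdh11 or Cdh13, and sides are given by coordinate, not as upstream or downstream.

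Cdh6, a cadherin expressed on the striatal side of the border with the cortex in the mouse embryo, had 3 transgenic peaks (0.619 to 8.77) and 0 wild-type peaks in its body on chromosome 15, 13028699 to 13176407. The mean density of the chromosome gives 0.397 and 0.0647. The transgenic interval lies above its mean, though it does not allow for Cdh6 being 1 of 10 members looked at. Cdh6 is on the minus strand, and its 3 transgenic peaks lay 73.6, 121 and 138 kb from the start site. They had folds of 4.34, 3.52 and 3.49. Its domain held 5 transgenic peaks and 1 wild-type peak, against 3.0 and 0.489 at the mean density. The strongest of the 5, at 13355491 to 13355614, lay 179 kb beyond the gene with 9 fragments and a fold of 5.03 (−log10 p 7.0). The farthest, at 12569645 to 12569755 (8 fragments, fold 4.53), fell in Pdzd2, a gene of a PDZ-domain protein and the only other coding gene holding a peak of either library inside a cadherin domain. The wild-type peak at 13558528 to 13558584 had 7 fragments, a fold of 4.52 and −log10 p 5.07, and lay 203 kb from the nearest transgenic peak.

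Cdh18 held the transgenic peak of lowest p in the family. Its body (chromosome 15, 22548898 to 23477491) contained 2 transgenic and 0 wild-type peaks, where the mean density gives 2.44 and 0.397. The peak at 23099521 to 23099631 had 9 fragments, a fold of 5.43 and −log10 p 7.64, and the other had 7 fragments and a fold of 4.34. The start site in the promoter table lies 488 kb inside the annotated span, which also covers predicted transcripts. Both body peaks lay after that start site, by 63.1 and 239 kb. The domain held 5 transgenic and 0 wild-type peaks, against 5.05 and 0.822 at the mean density. One of the 5 is shared with Cdh12, whose domain overlaps.

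Cdh12 likewise held 2 transgenic and 0 wild-type peaks in its body (chromosome 15, 20448878 to 21598421), where the mean density gives 3.02 and 0.492. The stronger, at 21137797 to 21137909, had 8 fragments, a fold of 4.89 and −log10 p 6.56 and lay 26.4 kb after the start site of the promoter table. The weaker, with 5 fragments and a fold of 3.02, lay 583 kb before that start site, in the part of the gene that other transcript models cover. A further 3 transgenic peaks on the high-coordinate side had 5 fragments each and folds from 3.02 to 3.26. The domain thus held 5 transgenic and 0 wild-type peaks, against 5.62 and 0.916.

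Cdh20 and Cdh7, close relatives on chromosome 1, carried transgenic peaks alone. Cdh20 held 2 transgenic peaks (0.242 to 7.22) and 0 wild-type peaks in its body (104768340 to 104995481), where the mean density gives 0.621 and 0.0517. They lay 31.0 and 113 kb after the start site, with 5 and 7 fragments and folds of 2.89 and 4.34. A further transgenic peak, at 105075895 to 105076005 and 80.4 kb beyond the gene, had the lowest p of the domain (8 fragments, fold 4.29, −log10 p 5.63). Cdh7 (109982237 to 110145272) held 0 peaks in its body in both libraries, and 2 transgenic peaks 140 and 214 kb before it. The stronger of these, at 109841792 to 109841967, had 7 fragments, a fold of 3.82 and −log10 p 4.71. The nearest wild-type peak was 4465 kb from Cdh20 and 9679 kb from Cdh7. Over their domains the mean density gives 0.274 and 0.260 wild-type peaks, so the 0 in each (0 to 3.69) was not distinguishable from that mean.

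Cdh8, Cdh9 and Cdh10 had few peaks or none. Cdh8 (chromosome 8, 99024471 to 99417666), known in mice for sensory and frontal cortical circuits, held 0 peaks in its body in both libraries, where the mean density gives 1.09 and 0.151. Beside it lay 1 transgenic peak at 98715701 to 98715863 (6 fragments, fold 3.60, −log10 p 4.24) and 1 wild-type peak at 98742272 to 98742328 (6 fragments, fold 4.05, −log10 p 4.2), 26.4 kb apart. Cdh10 (chromosome 15, 18818869 to 19016206), a brain cadherin, held 0 peaks in its body in both libraries. Its 2 transgenic peaks lay on the low-coordinate side, the stronger at 18801866 to 18801983, 16.9 kb from the gene and inside the noncoding RNA gene C030047K22Rik, with 7 fragments, a fold of 4.26 and −log10 p 5.40. Cdh9 (chromosome 15, 16728550 to 16857138), an adhesion protein of hippocampal mossy fibre synapses in the mouse, was the single member with an empty domain. Its 0 transgenic peaks (0 to 3.69) stand beside 2.95 at the mean density and its 0 wild-type peaks beside 0.481, so its empty domain was not distinguishable from that mean. The nearest peaks of Cdh9 lay 647 kb away in the transgenic library and 843 kb away in the wild-type library.

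**Figure D3:**
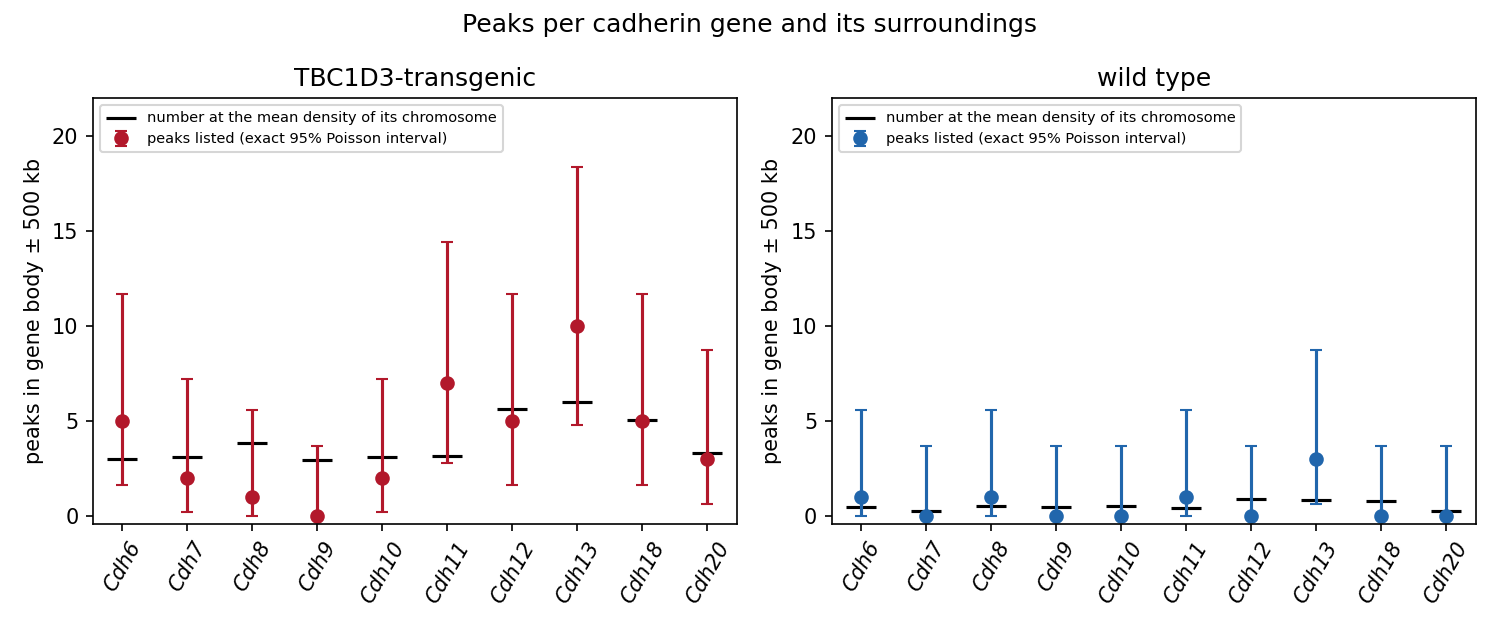
Peaks in each gene body with 500 kb on either side (points, with exact 95% Poisson intervals) for the transgenic library (left) and the wild-type library (right), on the same vertical scale. Horizontal marks are the numbers that the mean density of each gene's chromosome gives. Every interval of a domain includes its mark, from Cdh9 with 0 transgenic peaks against 2.95 to Cdh13 with 10 against 6.02.

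By domain, the transgenic order ran from Cdh13 with 10 peaks and Cdh11 with 7, through Cdh6, Cdh12 and Cdh18 with 5 each, Cdh20 with 3, Cdh7 and Cdh10 with 2 each and Cdh8 with 1, to Cdh9 with 0. The wild-type order ran from Cdh13 with 3, through Cdh6, Cdh8 and Cdh11 with 1 each, to the other 6 members with 0. Domains ran from 1.13 Mb in Cdh9 to 2.18 Mb in Cdh13, so these are orders of counts and not of density. Intervals of neighbours in these orders overlap. By chromosome, the 3 members on chromosome 8 had 18 transgenic peaks where the mean gives 13.0, and 5 wild-type peaks where it gives 1.80. The 5 members on chromosome 15 had 16 against 19.6 and 1 against 3.20. The 2 members on chromosome 1 had 5 against 6.43 and 0 against 0.534. All 6 of these means lie inside the exact Poisson intervals of the counts.

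The peaks themselves were as small and as weak as the rest of the lists. In the domains, transgenic peaks rested on 5 to 9 fragments (median 7), where the whole list runs from 5 to 22 (median 6). Wild-type peaks in the domains rested on 6 to 8 fragments, where the whole list runs from 5 to 12 (median 6). The median fold was 3.73 (2.89 to 5.43) among transgenic peaks of the domains and 3.62 in the whole list. Among wild-type peaks of the domains it was 4.28 (3.94 to 4.66), and 3.90 in the whole list. The width equalled the fragment extension of the call in 22 of 39 transgenic peaks (111 bp) and in 5 of 6 wild-type peaks (57 bp). That count was not made for the whole lists. The median width was 111 bp in the transgenic domains and 115 bp in the whole transgenic list. In the wild type it was 57 bp in both. The lowest q anywhere was 0.0673 in the transgenic list and 0.136 in the wild-type list, so 0.05 was reached in neither. In the transgenic domains 14 of 39 peaks, or 35.9% (exact binomial interval 21.2 to 52.8), had a q of at most 0.1, where the whole transgenic list gives 23.1%. All 6 wild-type peaks of the domains carried a q of 1, as did 95.3% of the whole wild-type list.

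**Figure D4:**
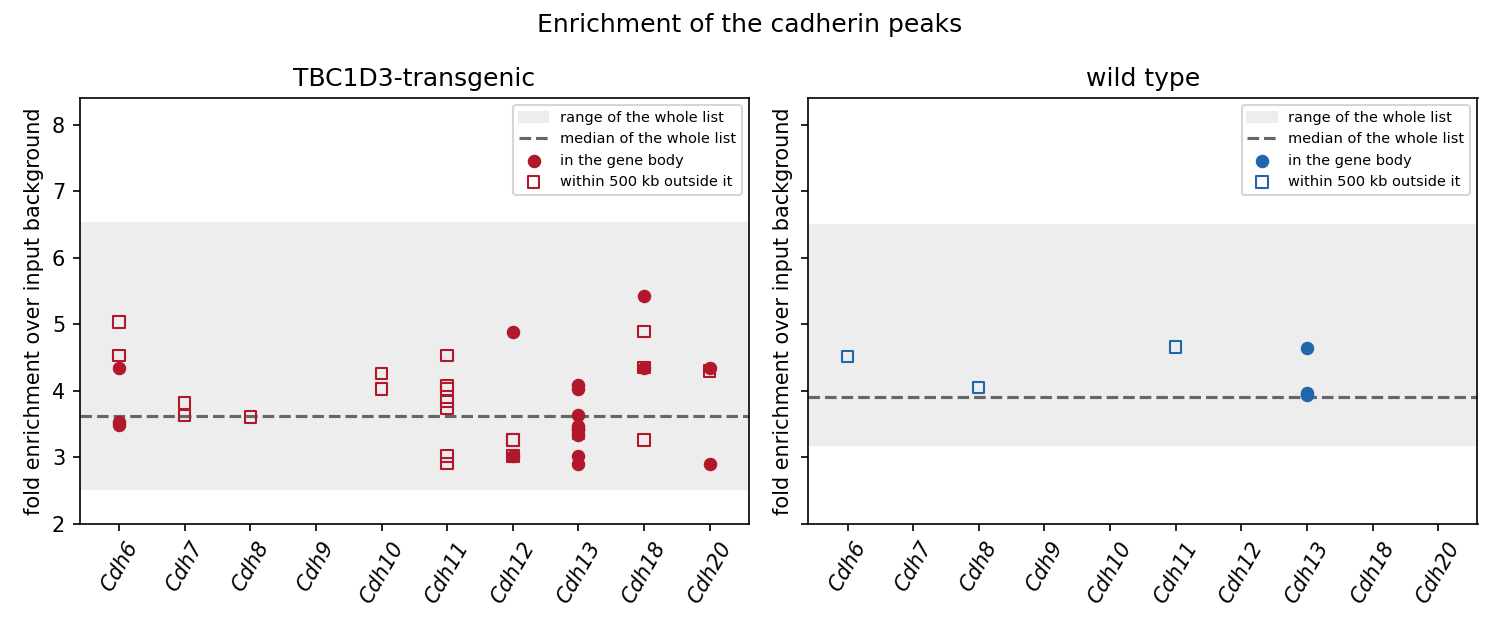
Fold enrichment over the input background, as the authors listed it, for each peak in the cadherin domains of the transgenic library (left) and the wild-type library (right). Filled circles lie in gene bodies and open squares within 500 kb outside them, the dashed line is the median of the whole list and the shaded band its range. Cadherin peaks run from 2.89 to 5.43 in the transgenic library and from 3.94 to 4.66 in the wild-type library, inside the range of each list.

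Shared positions were few. Of the 6 wild-type peaks in the domains, 0 overlapped a transgenic peak and 2 had one within 10 kb, both in Cdh13, which is 33.3% (exact binomial interval 4.33 to 77.7). In the whole wild-type list 4 of 743 peaks, or 0.538% (0.147 to 1.37), overlapped a transgenic peak. There, 75 of 743, or 10.1% (8.02 to 12.5), had one within 10 kb. With 6 peaks, a difference from the rest of the list was not detectable.

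Other genes of cadherin adhesion were set beside the family. Of all coding genes, 5.69% held a transgenic and 0.911% a wild-type peak. Shares rise with gene length, to 86.8% and 29.6% over 600 kb, and no share of like length was computed for these lists. Median lengths were 66.9 kb in the other classical cadherins, 59.1 kb in the other superfamily genes and 136 kb in the partners. The longest genes were 457, 592 and 1574 kb. The numbers at mean density take length into account. Of 9 other classical cadherins, 1 held a transgenic peak and 2 a wild-type peak. Over these 9 genes there were 2 transgenic and 2 wild-type peaks, where the mean densities of their chromosomes give 2.87 and 0.360. Cdh5, the endothelial VE-cadherin, held 2 transgenic peaks (folds 4.39 and 3.63) and 1 wild-type peak (fold 3.35) in 42.9 kb, where the mean density of chromosome 8 gives 0.129 and 0.0178. Genes of these lists are named because they hold a peak. Single counts above the mean, as in Cdh5 and Fat3, are thus selected by their value. Cdh4, R-cadherin of the embryonic cortex, held 0 transgenic peaks and 1 wild-type peak (fold 3.98). Of 17 other cadherin superfamily genes, 5 held a transgenic and 1 a wild-type peak, with 8 and 1 peaks in all where the mean densities give 5.44 and 0.670. Fat3, a giant cadherin that shapes neuronal dendrites, held 4 transgenic peaks and 0 wild-type peaks, where the mean gives 1.55 and 0.206. Dchs2, a dachsous-type cadherin, held 1 peak in each library, and Cdh17, Cdh23 and Fat2 held 1 transgenic peak each.

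Of 11 catenins and cytoplasmic partners, 3 held a transgenic peak and 0 a wild-type peak. Ctnna2, the neuronal alpha-catenin, held 4 transgenic peaks where the mean density gives 2.80. Ctnna3, an alpha-catenin of heart muscle, held 2 where it gives 4.01, and Ctnnd2, the neuronal delta-catenin, held 1 where it gives 2.25. These 3 are the longest of the list, from 857 to 1574 kb. Over the list there were 7 transgenic and 0 wild-type peaks where the mean densities give 11.1 and 1.26.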

How the data were processed

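H3K9me2 chromatin immunoprecipitation with sequencing was done on cortex at embryonic day 15.5, with 1 TBC1D3-transgenic and 1 wild-type library, grouped by the genotype label. The authors ran MACS 2.1.0.20150420 on each library with its own input, per the file headers, at a p cutoff of 0.001, with no model, summit calling and no broad calling. The submitters' processing notes name BWA and the build mm10. Fragments were extended by 111 bp in the transgenic and 57 bp in the wild-type call, so a like fragment number has a different p in each list. Depth after filtering was 20697113 transgenic and 26735120 wild-type ChIP tags, and 20968853 and 25431051 input tags.

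The pileup, a deposited signal, counts fragments at the summit once the deeper of ChIP and input was scaled down, per the file headers. Dividing by that factor (1 and 0.951) gave whole fragments within 0.02 for 100% of peaks in both lists. The deposited fold ratio, −log10 p and −log10 q are the authors' values per peak, used to describe or filter peaks within a list. The deposited peak length is in bp.

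Genes came from a RefSeq table of GRCm38.p6, without those starting before 3 Mb. Mean densities use each chromosome from 3 Mb to its last gene or peak. Intervals are exact Poisson, exact (Clopper-Pearson) binomial or, for density ratios, exact conditional binomial, all 95%. Computations used Python 3.11.15, scipy 1.17.1 and pandas 2.3.3, and the counting was checked on planted peaks. The members and lists were chosen with earlier results of these data known. Named genes were all members with the peak of lowest p of each, other listed cadherin and partner genes holding a peak, and other coding genes holding a peak inside a domain. Noncoding genes under a member's peaks were named after their values were seen. No genome sequence was used here, so the sequences under the peaks were not analysed here.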

Additional observations from a re-analysis of the deposited data

How the results depend on the processing

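With 1 library per genotype no library could be left out, and the smallest listed peaks rest on 5 fragments in both lists. No paired analysis was possible because each genotype had 1 library. Of 82 recomputed values 58 stayed within the main value's interval, or within 1.5 times it for counts, and 24 moved. The main density ratios of the domains (0.991 and 1.30) have intervals that include 1, so no direction was called. The transgenic ratio ran from 0.890 (windows of like gene number) to 2.41 over all settings, and was above 1 also with a reach of 250 kb (1.20), against all autosomes (1.05), at a −log10 p of at least 5 (1.31) and over the 743 transgenic peaks of lowest p (1.16). Flanks of 0, 10 and 50 kb, merging within 1 kb, other comparison sequence and, chosen after seeing the data, start sites of the promoter table (17 transgenic body peaks) moved none past these limits. The 50 kb flank gave 20 transgenic body peaks in 6 members, against 18 in 5. The filters shortened the lists by construction. With a fold of at least 5 there were 1 transgenic and 0 wild-type body peaks in 1 and 0 members, and 2 and 0 domain peaks (1.20% and 0% of the lists). The density ratio of the domains was then 2.41 (0.275 to 9.74) and 0, and 0 wild-type peaks had a transgenic peak within 10 kb. The body ratio could not be computed for the wild type there. At a −log10 p of at least 5, 7 and 1 body peaks and 17 and 3 domain peaks were left, and 1 wild-type peak with a transgenic peak within 10 kb. The 743 transgenic peaks of lowest p held 2 body peaks in 2 members and 6 domain peaks. A reach of 1 Mb gave 60 transgenic domain peaks, 0.960% of the list. Of the 6 wild-type domain peaks, those near a transgenic peak numbered 0 by overlap, 0 within 1 kb and 4 within 100 kb (66.7%, 22.3 to 95.7). Over the whole wild-type list the shares were 0.538%, 2.96% and 52.1%.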
